A study of Rattus norvegicus with 26 samples.

Results

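The enzymes of mitochondrial fatty acid beta-oxidation studied here were the products of 10 genes, Acadvl, Acadl, Acadm, Acads, Echs1, Hadha, Hadhb, Hadh, Acaa2 and Decr1. They were chosen by name as core enzymes of the pathway, with no threshold on measured values, though earlier results of these data were known. Each was read from the single probe that carries its name, so that 10 genes of 13337 named genes on the array are described. Heart RNA was measured on the Illumina RatRef-12 BeadChip, 1 array per animal, in the stroke-prone spontaneously hypertensive rat (SHRSP), an inbred model of hypertension, stroke and a thickened left ventricle, and in the normotensive inbred strain F344. The 4 groups were male F344 at embryonic day 20 (E20, n = 7), male SHRSP at E20 (n = 4), male F344 at 14 weeks of age (week 14, n = 8) and male SHRSP at week 14 (n = 7), all without a transgene, drug or gene deletion, on a normal-salt diet where a diet applies. The adult samples were the left ventricle without the septum. The sources differ on the E20 samples, which the labels call whole heart and the methods describe as both ventricles without the atria, and on the RNA extraction, for which the labels name TRIzol throughout and the methods a different kit for each stage. The tissue thus differed between the stages by either source. Age, tissue part and, by the methods, extraction therefore cannot be told apart when the stages are compared. F344 is a separate inbred strain and not the closest relative of SHRSP, so a difference between the strains holds all of their genetic background.

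Fatty acids are activated to acyl-CoA, carried into the mitochondrion by the carnitine shuttle and then shortened in repeated rounds of dehydrogenation, hydration, a further dehydrogenation and thiolytic cleavage. The pathway is the main source of energy in the adult heart, whereas the heart before birth relies more on glucose and lactate. Each round passes electrons to the respiratory chain and releases acetyl-CoA for the tricarboxylic acid cycle.

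All values are the deposited log2 probe intensities after quantile normalization, which lie between 6.64 and 15.53 with an array median of 7.16. Levels of different probes cannot be set against each other, so each gene was compared only with itself between groups. A difference of group means on this scale is the log fold change (logFC), given with its standard error (SE), and it was taken as past the threshold at an adjusted p under 0.05 in limma over all 22523 probes. Within the groups the arrays correlated at 0.98 or more over all probes, and the number of arrays limits the precision. The authors had dropped arrays that correlated poorly with their group, which left 4 for SHRSP at E20. The correlation follows in part from that filter, which can also narrow the SE and the range of a group. Samples of 1 group are separate animals of an inbred strain, and litters are not given in the sources used here.

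In both F344 and SHRSP each of the 10 enzymes had its lower level at E20, with no overlap between the arrays of the 2 stages for any of them. The logFC of E20 minus week 14 lay between -2.34 (Acaa2) and -1.04 (Acads) in F344 and between -2.71 (Acaa2) and -1.24 (Echs1) in SHRSP, with medians of -1.52 and -1.72 beside -0.00 over all probes. Of all probes, 17.2% in F344 and 15.7% in SHRSP were lower at E20 at the same threshold, and 8.59% and 12.2% were lower without overlap between the stages. Many of those probes are dim. Among the 2343 probes with a mean level above 9.5, a range that holds all 10 enzymes, 35.7% and 34.7% were lower at E20. At a logFC beyond -1.5, 5 of 10 enzymes in F344 and 7 of 10 in SHRSP were lower, against 1.09% and 1.13% of all probes. Neither this share nor that without overlap was taken among the brighter probes alone. A probe near the array median of 7.16 has little room to fall, so both shares may be higher among bright probes. The 2 comparisons use different arrays of the same 4 groups in 1 fit.

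**Figure D1:**
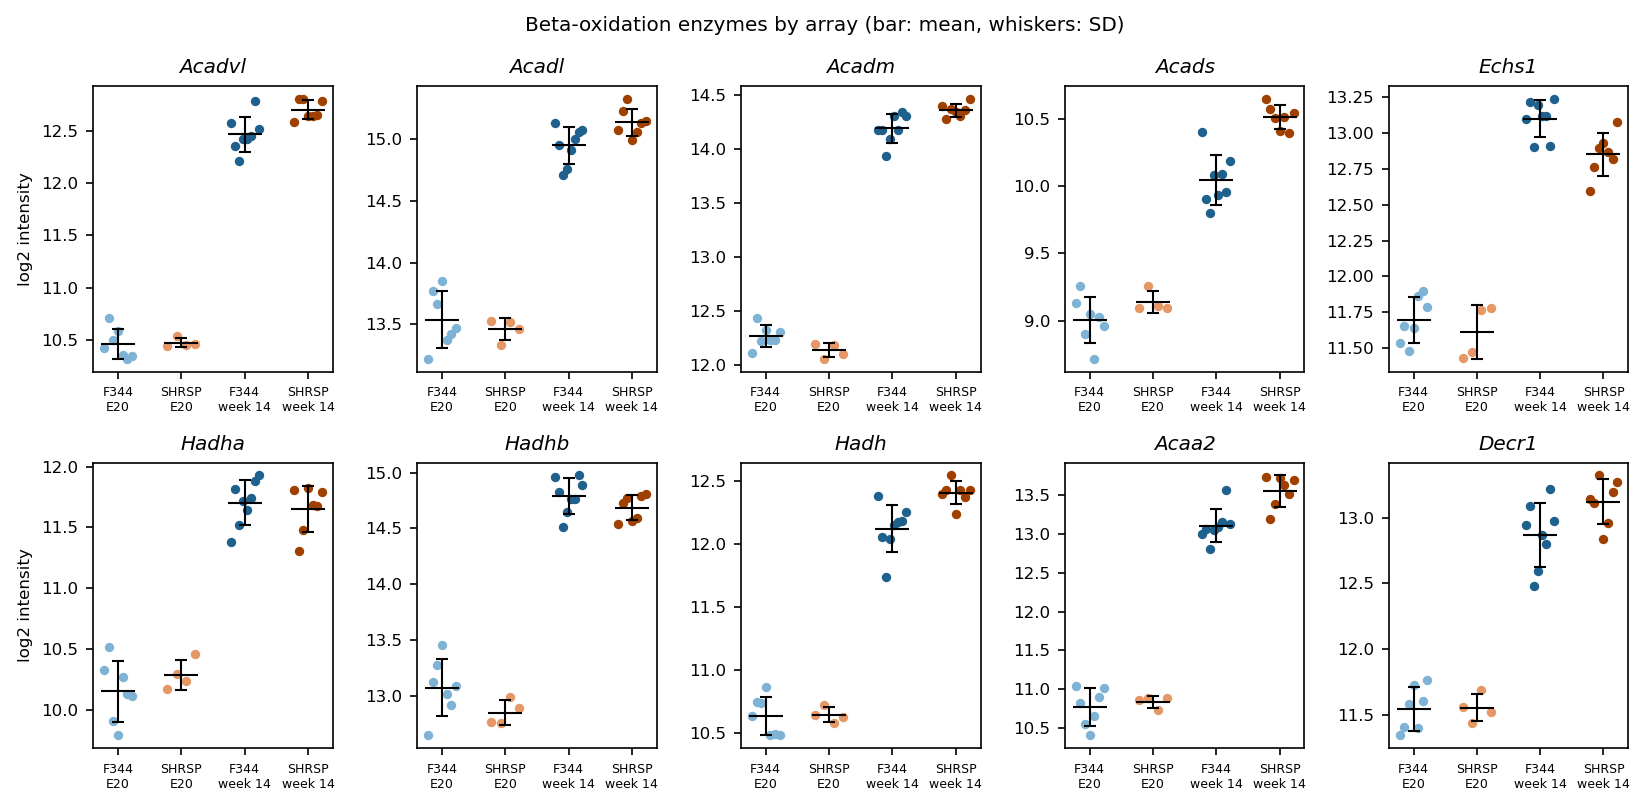
Normalized log2 intensity (vertical axis) of each enzyme on each of the 26 arrays (points), by strain and stage, with the mean (bar) and SD (whiskers) of each group. In every panel the week 14 arrays lie above all E20 arrays. The highest E20 and lowest week 14 arrays read 11.04 and 12.81 for Acaa2, the widest gap, and 9.26 and 9.80 for Acads, the narrowest.

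The first step of each round is taken by the acyl-CoA dehydrogenases, which differ in the chain length they accept. Acadvl, the very-long-chain enzyme bound to the inner membrane, had a lowest, median and highest level of 10.32, 10.43 and 10.72 in F344 at E20 and read 10.45, 10.54, 10.46 and 10.47 in the 4 SHRSP arrays at E20. At week 14 it reached 12.21, 12.44 and 12.78 in F344 and 12.58, 12.65 and 12.80 in SHRSP. The E20 arrays of both strains thus lay well apart from all week 14 arrays, and the logFC was -1.997 ± 0.065 in F344 (adjusted p = 3.73e-19) and -2.22 ± 0.08 in SHRSP (adjusted p = 4.22e-18).

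Acadl, the long-chain dehydrogenase, ranged over 13.22, 13.47 and 13.85 (lowest, median, highest) in F344 at E20, and the SHRSP arrays at E20 read 13.53, 13.33, 13.52 and 13.47. At week 14 the levels were 14.71, 14.98 and 15.13 in F344 and 14.99, 15.13 and 15.33 in SHRSP. The stages did not overlap, and the highest value of any probe on these arrays was 15.53. The logFC was -1.41 ± 0.08 in F344 and -1.68 ± 0.10 in SHRSP (adjusted p = 4.43e-14 and 9.83e-14).

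Acadm, the medium-chain dehydrogenase, had the smallest SE of the 10 enzymes. Its level was 12.11, 12.23 and 12.44 in F344 at E20 and 12.20, 12.05, 12.19 and 12.10 in the SHRSP arrays, and it stood at 13.94, 14.18 and 14.34 in F344 and 14.28, 14.36 and 14.46 in SHRSP at week 14. The stages were separated by at least 1.498 in F344 and 2.08 in SHRSP between their nearest arrays. The logFC was -1.92 ± 0.05 in F344 (adjusted p = 4.22e-21) and -2.22 ± 0.06 in SHRSP (adjusted p = 3e-20).

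Acads, the short-chain dehydrogenase, showed the smallest change in F344. It read 8.72, 9.03 and 9.26 in F344 at E20, 9.09, 9.26, 9.11 and 9.10 in the SHRSP arrays at E20, 9.80, 10.02 and 10.40 in F344 at week 14 and 10.39, 10.51 and 10.64 in SHRSP at week 14. The order of the groups was therefore E20 of either strain, then F344 at week 14, then SHRSP at week 14. The logFC of E20 minus week 14 was -1.04 ± 0.07 in F344 and -1.37 ± 0.09 in SHRSP (adjusted p = 5.5e-12 and 1.24e-12), a fold of 2.05 and 2.58.

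Echs1, the short-chain enoyl-CoA hydratase of the second step, had levels of 11.48, 11.66 and 11.90 in F344 at E20 and of 11.43, 11.47, 11.76 and 11.78 in the SHRSP arrays. At week 14 it read 12.90, 13.12 and 13.24 in F344 and 12.60, 12.87 and 13.08 in SHRSP, so that here F344 and not SHRSP held the highest arrays. The logFC was -1.41 ± 0.07 in F344 and -1.24 ± 0.09 in SHRSP (adjusted p = 1.51e-14 and 1.28e-11).

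For longer chains the remaining steps are joined in the trifunctional protein, whose alpha subunit is encoded by Hadha and whose beta subunit, the thiolase, by Hadhb. Hadha had levels of 9.79, 10.13 and 10.51 in F344 at E20, 10.17, 10.29, 10.23 and 10.46 in the SHRSP arrays, 11.38, 11.73 and 11.93 in F344 at week 14 and 11.31, 11.68 and 11.82 in SHRSP at week 14. Hadhb had levels of 12.65, 13.08 and 13.45 in F344 at E20, 12.77, 12.76, 12.99 and 12.89 in the SHRSP arrays, 14.51, 14.79 and 14.97 in F344 at week 14 and 14.54, 14.73 and 14.81 in SHRSP at week 14. Both subunits were thus separated by stage, with the ranges of the strains lying over each other within a stage. The logFC of Hadha was -1.55 ± 0.10 in F344 and -1.36 ± 0.12 in SHRSP (adjusted p = 4.32e-13 and 3.3e-10), and that of Hadhb was -1.72 ± 0.09 and -1.84 ± 0.11 (adjusted p = 4.94e-15 and 9.5e-14).

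These genes lie head to head on chromosome 6 of the rat genome (RefSeq, build GRCr8), Hadhb on the minus strand at 31873404 to 31907557 and Hadha on the plus strand at 31907801 to 31947434. The 243 bases between them, chr6:31907558-31907800, are shown because by these spans both genes of the complex start at its edges (plus strand, RefSeq, GRCr8).
Hadhb-Hadha gap: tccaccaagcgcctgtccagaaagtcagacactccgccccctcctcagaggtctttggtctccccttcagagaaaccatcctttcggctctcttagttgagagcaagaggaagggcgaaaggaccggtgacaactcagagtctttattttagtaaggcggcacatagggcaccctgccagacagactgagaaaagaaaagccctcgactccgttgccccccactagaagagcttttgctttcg
Their GC content was 53.5%. The 6-base motif AGGTCA, the core letters bound by many nuclear receptors, was not among these letters on either strand.

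Hadh, the short-chain hydroxyacyl-CoA dehydrogenase of the matrix, read 10.49, 10.64 and 10.87 in F344 at E20, 10.65, 10.73, 10.59 and 10.63 in the SHRSP arrays, 11.74, 12.17 and 12.39 in F344 at week 14 and 12.24, 12.43 and 12.55 in SHRSP at week 14. Stages did not overlap, and the logFC was -1.49 ± 0.07 in F344 and -1.76 ± 0.09 in SHRSP (adjusted p = 1.2e-15 and 2.9e-15).

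Acaa2, the matrix thiolase that cleaves medium-chain ketoacyl-CoA in the last step, had the largest change of the 10 enzymes in both strains. Its lowest, median and highest levels were 10.41, 10.82 and 11.04 in F344 at E20, and the SHRSP arrays at E20 read 10.86, 10.89, 10.73 and 10.89. At week 14 the levels were 12.81, 13.07 and 13.57 in F344 and 13.20, 13.63 and 13.74 in SHRSP. The stages lay 1.77 apart in F344 and 2.31 apart in SHRSP at their nearest arrays. The logFC was -2.34 ± 0.10 in F344 (adjusted p = 1.72e-16) and -2.71 ± 0.12 in SHRSP (adjusted p = 6.98e-16), a fold of 5.06 and 6.55.

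Decr1, the dienoyl-CoA reductase that lets polyunsaturated chains enter the spiral, read 11.34, 11.58 and 11.76 in F344 at E20, 11.56, 11.44, 11.68 and 11.52 in the SHRSP arrays, 12.48, 12.91 and 13.22 in F344 at week 14 and 12.84, 13.15 and 13.32 in SHRSP at week 14. F344 at week 14 was the widest of these groups, with an SD of 0.24. The logFC was -1.33 ± 0.09 in F344 and -1.57 ± 0.11 in SHRSP (adjusted p = 4.08e-12 and 8.02e-12).

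**Figure D2:**
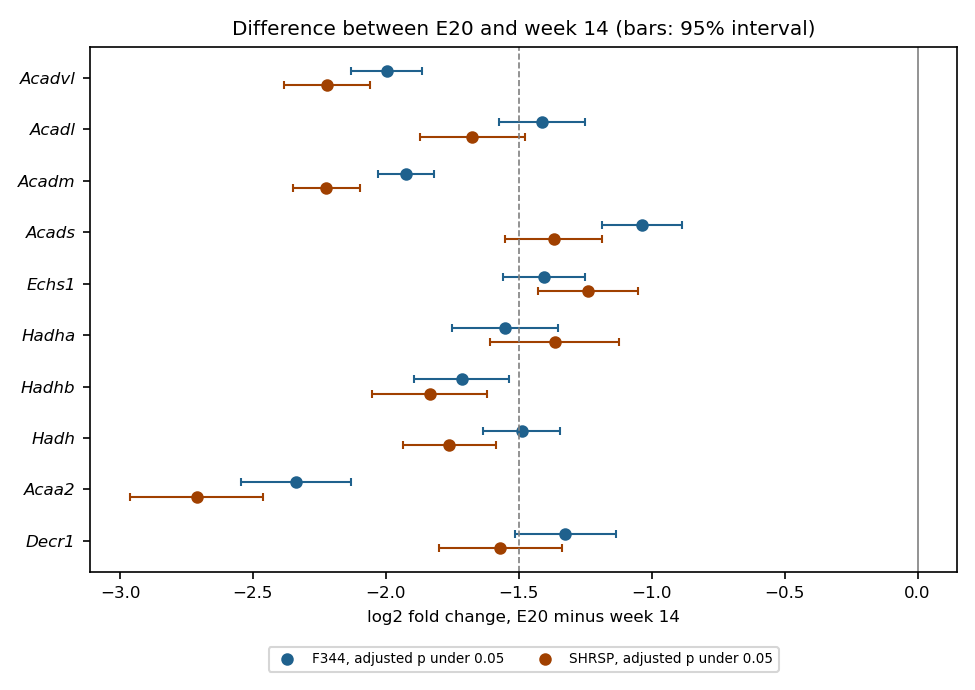
Log2 fold change of E20 minus week 14 (horizontal axis) for each enzyme in F344 and SHRSP, with 95% intervals, and a dashed line at -1.5. All 10 enzymes lie left of 0 in both strains, with Acaa2 farthest at -2.34 and -2.71.

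Markers of other cell types moved with the same comparison. Cardiomyocyte markers were present in every group, and the mean level of 9 of them per array was 12.37 to 12.67 in F344 at E20, 12.39 to 12.62 in SHRSP at E20, 12.91 to 13.13 in F344 at week 14 and 13.11 to 13.26 in SHRSP at week 14. Of these 9, 5 in F344 and 6 in SHRSP were lower at E20, from Actn2 (logFC = -0.40 in F344) to Ryr2 (-1.49 in F344), while the troponin gene Tnnt2 read 15.20 ± 0.12 at E20 and 15.22 ± 0.06 at week 14 in F344 (SD, n = 7 and 8). Of 3 cycling markers measured, Cdk1 and Rrm2 were higher at E20 (logFC = 4.31 and 4.20 in F344). Ccnb1 was lower in F344 (-0.09), with means of 6.93 and 7.03 near the lower end of the scale. All 5 macrophage markers measured were lower at E20 in both strains, as were 3 of 5 lymphocyte markers in F344 (Klrd1, Cd3g and Cd3d) and 1 in SHRSP (Klrd1, -1.70 and -0.93). Of 4 endothelial markers, Tek and Egfl7 were lower in F344 and Tek in SHRSP. Of 6 fibroblast markers the collagens Col1a1, Col1a2 and Col3a1 were higher and Pdgfra, Dcn and Lum lower. Of 6 erythroid markers, 3 in F344 and 4 in SHRSP were higher at E20, Hbb among them. Among 5 markers of fat cells, 2 in F344 and 3 in SHRSP were lower at E20, with Cfd the largest (logFC = -2.24 and -2.12), and among 4 of brown fat cells 1 and 2 were lower, with Cidea at -0.94 and -1.06. Of 5 liver cell markers, Tf (-2.41 and -2.11) and Ttr (-0.93 and -1.04) were lower in both strains. Tf read 11.14 ± 0.26 and Ttr 8.20 ± 0.14 in F344 at week 14 (SD, n = 8), and Cfd read 9.77 ± 0.30. The defining markers Ucp1, Adipoq, Lep, Alb and Afp had a group mean under 7.5 in all groups. So did Ccnb1, Cd3d and the fat cell markers Retn and Cidec, and all 5 lymphocyte markers were under 7.5 at E20. The part of these markers in the lower enzyme levels was not tested, and in RNA of whole tissue fewer cells of a type and less RNA per cell cannot be told apart.

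Promoter windows of 250 bases before and 50 after the start were at hand for 7 of the 10 genes (Echs1, Hadh, Acadm, Hadhb, Hadha, Acadvl and Acads; RefSeq, GRCr8). AGGTCA, or TGACCT on the other strand, was found in 3 of these 7 windows (Acadvl, Echs1 and Hadhb) and in 16.2% of all 33469 promoter windows. Acadvl and Echs1 are shown because they carry the letters before the window's start, while the match of Hadhb lay after it at 42. The positions were -169 and -17 in Acadvl and -93 in Echs1. The Acadvl gene span reaches 55236786, upstream of the start used for its window, so the match at -17 lies inside that span. The starts used for Hadhb and Acads also lay inside their gene spans. Each run holds the 250 bases before the start, 5′ to 3′ on the strand of the gene, which is the minus strand for both, with the motif in capitals.
Acadvl, chr10:55236706-55236955: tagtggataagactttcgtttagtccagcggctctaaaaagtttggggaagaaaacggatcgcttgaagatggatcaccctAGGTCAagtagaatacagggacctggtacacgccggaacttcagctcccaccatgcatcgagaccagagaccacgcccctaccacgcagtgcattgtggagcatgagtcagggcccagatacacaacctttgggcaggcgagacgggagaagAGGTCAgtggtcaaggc
Echs1, chr1:204333507-204333756: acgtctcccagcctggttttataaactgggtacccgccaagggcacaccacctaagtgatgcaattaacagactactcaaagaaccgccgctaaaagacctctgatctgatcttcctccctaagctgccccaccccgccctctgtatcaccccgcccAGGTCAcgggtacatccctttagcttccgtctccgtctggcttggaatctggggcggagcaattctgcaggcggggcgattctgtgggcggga
The longer motifs were TCAAGGTCA (in 0.433% of all windows) and the direct repeat of AGGTCA spaced by 1 base, known as DR1 (0.0538%). A form of DR1 with free bases in 1 copy but a fixed spacer base was also searched (0.0568%). Each was searched on both strands, holds the shorter motif and was in none of the 7 windows. A match describes the letters only. The logFC of the 3 genes with a match lay between -1.997 and -1.41 in F344, within the range of the 10.

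The genes around the pathway were read in the same fits. Of 13 other genes of mitochondrial beta-oxidation, 13 were lower at E20 in F344 and 12 in SHRSP (medians -1.04 and -1.20), and none was higher. Ech1, an auxiliary isomerase for unsaturated chains, had a logFC of -3.25 ± 0.11 and -3.12 ± 0.14 in F344 and SHRSP, beyond any of the 10 enzymes. Mlycd, which degrades malonyl-CoA and so relieves the block on carnitine palmitoyltransferase, had -1.48 and -1.76, and Eci1, another auxiliary isomerase, had -1.63 and -1.52. Etfb, a subunit of the flavoprotein that takes electrons from the dehydrogenases, did not pass the threshold in SHRSP (logFC = -0.13, adjusted p = 0.0656).

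Of 14 genes of fatty acid uptake, activation and the carnitine shuttle, 11 in F344 and 10 in SHRSP were lower at E20 (medians -1.34 and -1.27). The largest were Cpt2, which returns acyl groups to CoA inside the mitochondrion (logFC = -1.91 and -1.82), the carnitine acetyltransferase Crat (-1.65 and -1.97) and the fatty acid transporter Slc27a1 (-1.52 and -1.58). The acyl-CoA synthetases Acsl3 (1.20 and 1.13) and Acsl5 (0.61 and 0.66) were higher at E20 in both strains and Acsl4 was so in SHRSP (0.19, adjusted p = 0.00411), genes named here because they went the other way.

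Peroxisomes shorten very long chains by a parallel route, and here 9 of 14 measured genes in F344 and 8 in SHRSP were lower at E20, with medians of -0.32 and -0.34. The large values were those of Scp2, a thiolase and lipid carrier (logFC = -2.41 and -2.67), and Phyh, which starts the breakdown of phytanic acid (-2.04 and -2.24), followed by the transporter Abcd3 (-0.75 and -1.20). Hacl1 was higher in F344 (0.20, adjusted p = 0.0189), and the list held no higher gene without F344 E20 replicate 3. In the degradation of branched-chain acyl-CoA, which uses related dehydrogenases, 10 of 11 genes in F344 and 9 in SHRSP were lower (medians -0.96 and -0.99), led by Bckdha, Acat1 and Auh.

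Of 15 measured respiratory chain genes, 14 were lower at E20 in each strain (medians -0.59 and -0.61), with Cox8b, Cox6a2 and Ndufv1 the largest by the mean of both strains (logFC = -1.67, -1.44 and -0.79 in F344). Of 11 tricarboxylic acid cycle genes, 9 were lower in each strain (medians -0.64 and -0.999), among them Ogdh (-1.48 and -1.52) and Suclg1 (-1.04 and -1.34), and Idh3b was higher (1.64 and 1.82). The list of mitochondrial membrane and import genes had medians of 0.00 and 0.02, with 2 lower, 5 higher and 4 not past the threshold in F344, and 4 lower, 5 higher and 2 not past it in SHRSP. Tomm40, a pore of the outer membrane, was higher at E20 (0.81 and 0.88), as were Phb2 and Hspd1. In SHRSP the count of 4 lower fell to 2 without replicate 1 or without replicate 2 of SHRSP E20, and the count of 5 higher fell to 3 without replicate 1.

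Of 8 measured genes of fatty acid synthesis, 4 were higher at E20 and 1 was lower in each strain. Scd2, a desaturase, was higher by 3.20 and 2.94, Acly, which makes cytosolic acetyl-CoA, was higher by 0.60 and 0.80, and Me1, which supplies NADPH, was lower (logFC = -1.99 and -2.38). Of 12 measured regulators of fatty acid oxidation, 3 were lower in each strain, namely Klf15 (-1.19 and -0.73), Lpin1 (-0.62 and -0.76) and Pparg (-0.34 and -0.43). Ppargc1a was higher by 0.14 and 0.15, and Tfam passed in SHRSP (0.24, adjusted p = 0.000202) but not in F344 (0.03, adjusted p = 0.577), a difference that did not pass the interaction test (adjusted p = 0.0764). The count of 2 higher regulators in SHRSP fell to 1 without replicate 1 or without replicate 4 of SHRSP E20. Ppara, whose protein drives many of these enzymes, had a logFC of -0.01 in F344 and -0.10 in SHRSP (adjusted p = 0.893 and 0.0687).

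**Figure D3:**
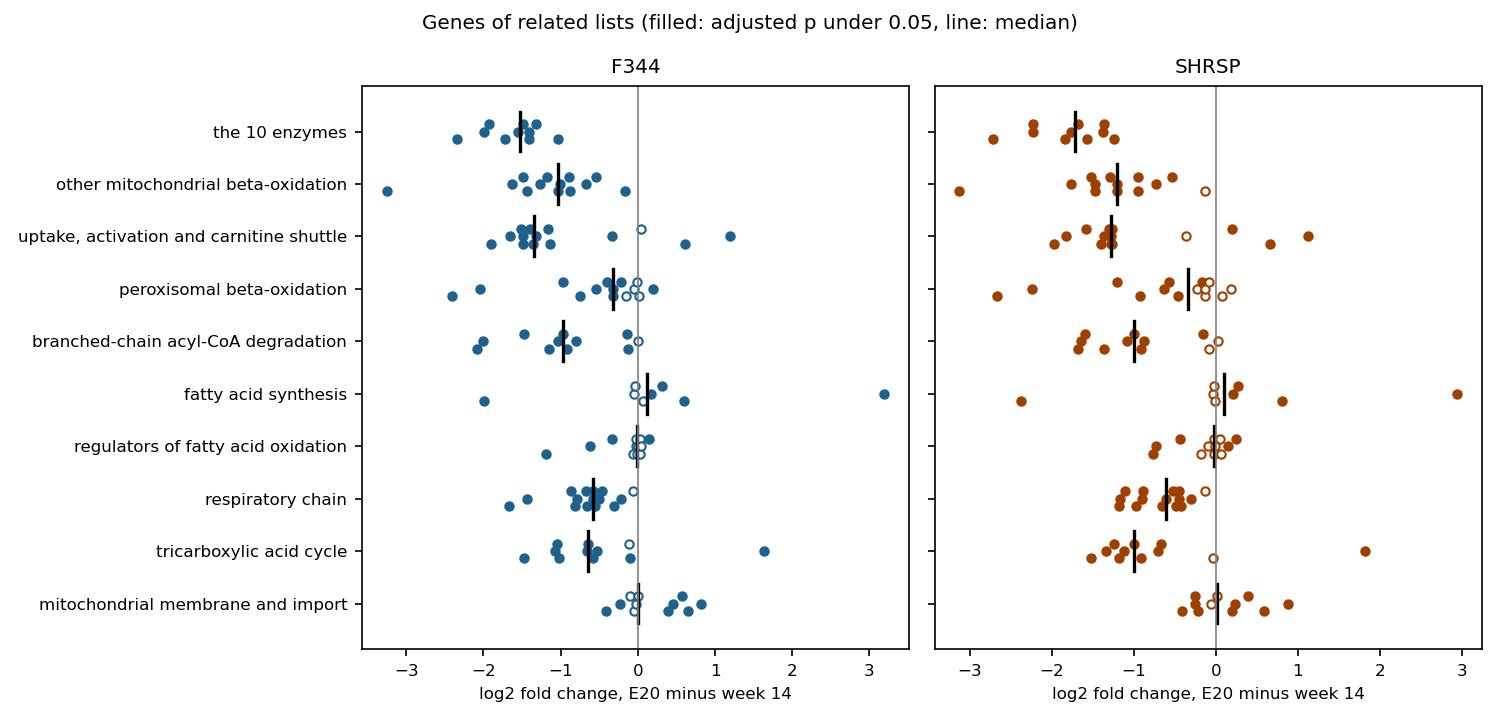
Log2 fold change of E20 minus week 14 (horizontal axis) for every measured gene of each list (points, filled where the adjusted p was under 0.05) in F344 and SHRSP, with the median of the list as a black line. The medians of the 10 enzymes are -1.52 and -1.72, and those of the membrane and import genes are 0.00 and 0.02.

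At week 14 the strains differed at 6 of the 10 enzymes, 5 of them higher in SHRSP and 1 lower. At this threshold 4.49% of all probes were higher and 4.46% lower in SHRSP, and among the 2343 probes above 9.5 these shares were 9.09% and 8.41%. The count depended on the test, with 4 enzymes past the threshold under array weights, 3 under limma-trend and 2 under the methods' t-test, none of them lower. The differences were small beside those between the stages, from -0.25 to 0.47 on the log2 scale with a median of 0.21, and the arrays of the strains overlapped at each of the 10, where 2.1% of all probes were higher and 1.27% lower without overlap. The comparison uses the same week 14 arrays as the comparisons of the stages.

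Acads had the largest difference, 0.47 ± 0.07 (95% interval 0.31 to 0.62, adjusted p = 4.57e-05), a fold of 1.38. The lowest SHRSP array, at 10.39, lay just under the highest F344 array, at 10.40, and above the others. Acaa2 followed with 0.45 ± 0.10 (0.24 to 0.65, adjusted p = 0.00333), although its ranges overlapped more widely. Hadh was higher by 0.28 ± 0.07 (adjusted p = 0.00797), Acadvl by 0.23 ± 0.06 (adjusted p = 0.0188) and Acadm by 0.17 ± 0.05 (adjusted p = 0.0324).

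Echs1 was the enzyme lower in SHRSP, with a logFC of -0.25 ± 0.07 (-0.40 to -0.09, adjusted p = 0.034). The remaining 4 did not pass the threshold. Their values were 0.25 for Decr1 (0.06 to 0.44, adjusted p = 0.105), 0.19 for Acadl (0.02 to 0.35, adjusted p = 0.189), -0.10 for Hadhb (-0.28 to 0.07, adjusted p = 0.614) and -0.05 for Hadha (-0.25 to 0.15, adjusted p = 0.867). All 4 acyl-CoA dehydrogenases thus had positive values, of which 3 passed, and both subunits of the trifunctional protein had values below 0, of which none passed.

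The calls of Acadm and Echs1 were the least firm. Acadm was no longer past the threshold in 8 of 26 fits that each left out 1 array, with adjusted p from 0.0130 to 0.0790 over the 26, and Echs1 in 9 of 26, with 0.0135 to 0.0926. Leaving out SHRSP replicates 1, 3, 6 or 7 or F344 replicates 2, 3, 4 or 6 ended the call of Acadm, and leaving out SHRSP replicates 1, 2, 5 or 6 or F344 replicates 2, 4, 5, 6 or 8 ended that of Echs1, all of week 14. Decr1 passed without SHRSP replicate 4 (0.0468) or without F344 replicate 7 (0.0320). The call of Echs1 was also lost with the replicate number as a block (adjusted p = 0.0629). Acads, Acaa2, Hadh and Acadvl passed in all 26, but Acadvl did not pass under limma-trend (0.0685) or the methods' t-test (0.0817), nor Hadh under the latter (0.0505).

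**Figure D4:**
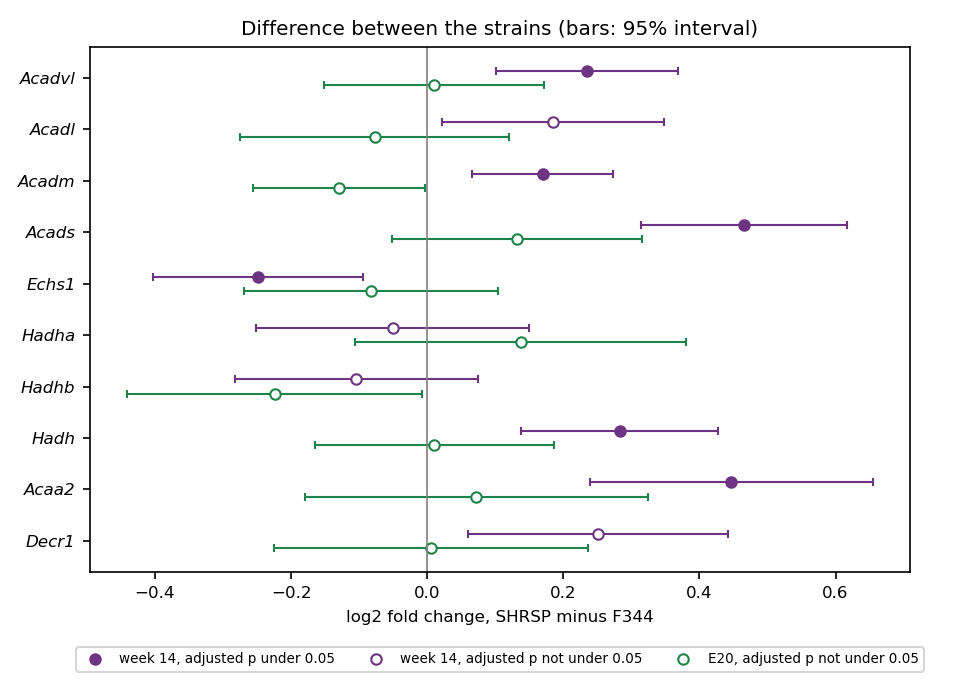
Log2 fold change of SHRSP minus F344 (horizontal axis) for each enzyme at week 14 and at E20, with 95% intervals, and filled points where the adjusted p was under 0.05. At week 14, 5 enzymes are higher and 1 lower in SHRSP, and at E20 none passed the threshold.

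Other readings of the same arrays moved beside these differences. The mean of the 9 cardiomyocyte markers per array was 12.91 to 13.13 in F344 and 13.11 to 13.26 in SHRSP at week 14, and 1 of the 9, Actc1, was higher in SHRSP (0.48, adjusted p = 3.27e-05). Of 5 lymphocyte markers, 3 were lower in SHRSP (Cd3g, Cd3d and Klrd1), and of 5 macrophage markers 1 was lower (Mrc1, logFC = -0.99). Of 6 fibroblast markers, Col1a2 was higher (0.55) and Dcn lower (-0.22), and Cdk1 was higher by 0.36. Cidea, a lipid droplet gene of fat and heart, was higher by 0.58, while the brown fat gene Ucp1 stayed near the lower end of the scale. Their part in the differences of the enzymes was not tested.

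Among the other lists at week 14, 3 of 13 further beta-oxidation genes were higher in SHRSP (Acot13 by 0.91, Etfa by 0.38 and Eci2 by 0.32) and 1 was lower (Acad11, -0.35), and of 14 uptake and carnitine genes 1 was higher (Crat, 0.32). No respiratory chain gene of 15 passed the threshold in limma. At an unadjusted p under 0.05 there were 2, a cut-off at which the share of all probes was not taken. In the tricarboxylic acid cycle 1 of 11 passed, the citrate synthase gene Cs (0.74, adjusted p = 1.16e-07). Of the 12 regulators, Tfam (1.03), Ppara (0.18) and Ppargc1a (0.14) were higher and Klf15 lower (-0.69). Acot13, Acad11 and Tfam also passed at E20 with the same sign (1.003, -0.40 and 1.24), unlike any of the 10 enzymes.

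At E20 none of the 10 enzymes differed between the strains at the threshold, where 3.21% of all probes did in limma, and the count was 0 under the methods' t-test as well. Among the 2343 probes above 9.5, 2.69% were higher and 3.5% lower. The logFC of SHRSP minus F344 lay between -0.22 (Hadhb) and 0.14 (Hadha) with a median of 0.01. Acadm (-0.13) and Hadhb (-0.22) had an unadjusted p under 0.05 in limma, a cut-off at which the share of all probes was not taken. The intervals show what size this comparison could have missed. For Acaa2 the interval was -0.18 to 0.32, for Acads -0.05 to 0.32, for Hadhb -0.44 to -0.01 and for Acadvl -0.15 to 0.17. With 4 SHRSP arrays the comparison is less precise than at week 14, with SE from 0.06 to 0.12. Of 6 erythroid markers Ahsp was higher in SHRSP at E20 (logFC = 1.51), and of 4 brown fat markers Cidea was (0.46). No marker of the other cell types passed the threshold at E20. The part of these markers in the values of the enzymes was not tested.

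Whether the change from E20 to week 14 differed between the strains was tested with the interaction of strain and stage, SHRSP change minus F344 change. It passed for 1 of the 10 enzymes, Acadm, at -0.30 ± 0.08 (95% interval -0.46 to -0.14, adjusted p = 0.0343), where 1.94% of all probes were lower in this sense and 1.02% higher. The call was lost, with a count of 0, under limma-trend, under cyclic loess, with the replicate number as a block and with the SHRSP E20 arrays averaged in pairs. The value of -0.30 joins the strain differences of Acadm, 0.17 at week 14 (adjusted p = 0.0324 in limma) and -0.13 at E20. The difference at E20 did not pass the threshold (adjusted p = 0.410 in limma). In all, 8 of 10 values were negative, the sign of a larger difference between the stages in SHRSP, but only that of Acadm passed. The median of the 10 was -0.25, beside 0.00 over all probes. The share of all probes with a negative value was not taken. At an unadjusted p under 0.05 in limma there were 6, a cut-off at which the share of all probes was not taken. The 10 values come from the same arrays and are not independent of each other. Acaa2 had -0.37 (adjusted p = 0.311), Acads -0.33 (0.156) and Hadh -0.27 (0.277). Hadha (0.19, 0.733) and Echs1 (0.17, 0.667) had the opposite sign. Of the cell type markers, 3 of 5 lymphocyte markers and 1 of 6 erythroid markers (Ahsp, 1.55) passed the interaction test. Their part in the values of the enzymes was not tested. The call of Acadm was also lost when 1 of 8 arrays was left out, namely F344 E20 replicates 2, 4 or 7, SHRSP week 14 replicates 1 or 7, SHRSP E20 replicates 2 or 4 and F344 week 14 replicate 4, and Acads passed as well without F344 week 14 replicate 1 (adjusted p = 0.0320).

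Within the groups the enzymes did not vary as a block. After subtraction of the group means, the 45 pairs of enzymes correlated between -0.31 and 0.87 over the 26 arrays (median 0.23), and 11 pairs were negative. The highest were Acadl with Hadhb (0.87) and Acadvl with Hadh (0.75), and the lowest was Hadha with Hadhb (-0.31), the subunits of 1 complex, while Hadha went with Acaa2 (0.71). The points share arrays and normalization, so these are descriptions without a test. In F344 at week 14 the median over the pairs was 0.56, and in the other groups it lay between -0.31 and 0.17.

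F344 at week 14 held 1 array that was low at most of the enzymes. Replicate 3 was the lowest of its 8 arrays at 9 of 10 enzymes and below the group mean at all 10, with a median deviation of -0.26 and deviations from -0.39 (Decr1) to -0.19 (Hadha). The same array had a median deviation of -0.35 over the other beta-oxidation genes, -0.33 over the uptake and carnitine genes, -0.23 over the tricarboxylic acid cycle, -0.09 over the respiratory chain and -0.00 over all probes. Its mean correlation with the others of the group was 0.985, where those arrays had 0.989 to 0.992. Its mean over the cardiomyocyte markers was 12.94, within the range of 12.91 to 13.13 in the group. Without it, at week 14 Acads had 0.43, Acaa2 0.40 (adjusted p = 0.00814), Hadh 0.23 (0.0117) and Acadvl 0.20 (0.0418), while Acadm had 0.13 (0.0641). Replicate 8 of the same group and replicate 7 of SHRSP at week 14 were above their group means at all 10 enzymes (median deviations 0.12 and 0.11). Replicate 7 of F344 at week 14 was the highest of its group at 5 enzymes and above the mean at 8. Its median deviation was 0.16, with 0.46 for Acaa2 and -0.19 for Echs1. The same array had 0.29 over the other beta-oxidation genes and 0.23 over the uptake and carnitine genes.

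**Figure D5:**
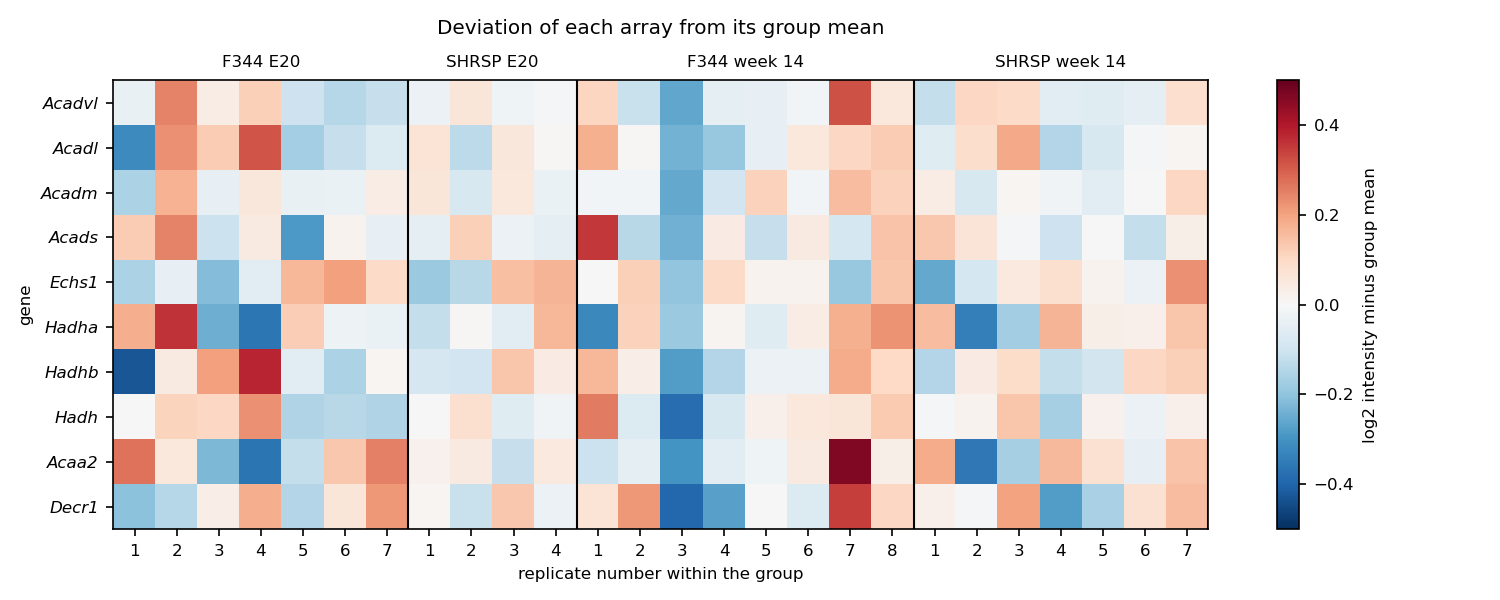
Deviation of each array from its group mean (colour, log2 scale) for each enzyme (rows) on the 26 arrays (columns, by group and replicate number). Replicate 3 of F344 at week 14 is below the mean in all 10 rows, with a median of -0.26.

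The genes most like the mean of the 10 enzymes were sought among 4227 other named genes with a mean level of at least 8. As measured, over 26 arrays, the highest correlations were those of Aqp7 (0.996), a glycerol channel, Me3 (0.995), the mitochondrial NADP-dependent malic enzyme, Coq8a (0.995), which serves coenzyme Q synthesis, Myom2 (0.993) of the sarcomere, Myh14 (0.992) and Scp2 (0.992). These values follow mainly the 2 stages. After subtraction of the group means the closest were Mlycd (0.81), Mrpl50 (0.81), Abhd18 (0.79), Schip1 (0.78), Acad10 (0.76) and Etfdh (0.76), of which Mlycd, Acad10 and Etfdh belong to the list of other beta-oxidation genes.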

How the data were processed

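Illumina RatRef-12 BeadChips were hybridized with heart RNA of both strains and stages. Using GenomeStudio 1.9.0 and lumi, the authors made log2 values, dropped arrays that correlated poorly with the rest of their group, and deposited the result of quantile normalization as log2 intensities; background correction is not given in the sources used here. All 22523 probes of the 26 arrays entered the fits without further scaling. A second table of raw intensities was left out because its 52 columns have headings that match no sample. The platform annotation names 1 gene for 13793 probes, and for 13752 of these the symbol was brought up to date by gene ID, while 8730 probes have no name here.

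A mean for each of 4 groups was fitted with limma 3.58.1 (R 4.3.3), with p-values adjusted by Benjamini-Hochberg over all probes. The members and the gene lists were chosen with earlier results of these data known. Where several probes name a gene, the one with the highest mean was used. From each list up to 3 genes past the threshold with the largest logFC are named, and others named for going the other way or for a strain difference were chosen after their values were seen. The fit was tested on simulated data. Deviations of same-numbered arrays of different groups correlated at a median of 0.03, against -0.02 for arrays with different numbers. No pairing was used in the main fit, and the replicate number as a block was an alternative. Alternatives were other samples in the fit, tests, normalizations, filters and each array left out in turn. Promoter sequences are RefSeq, build GRCr8. Other steps used Python 3.11.15 with pandas 2.3.3 and NumPy 2.4.6, and Matplotlib 3.10.9 drew the plots.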

Additional observations from a re-analysis of the deposited data

Results flagged for a closer look

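Of 40 combinations of enzyme and group checked for a single far array (Dixon's test, which marks about 1 in 20 by chance), 3 were marked. Acaa2 was lowest in replicate 3 of SHRSP at E20, at 10.73, where the other 3 arrays read 10.86 to 10.89. Acaa2 was highest in replicate 7 of F344 at week 14, at 13.57, where the others read 12.81 to 13.15. Acads was highest in replicate 2 of SHRSP at E20, at 9.26, where the others read 9.09 to 9.11. The change of Acadm from E20 to week 14 passed the interaction test between the strains, at -0.30 (adjusted p = 0.0343 in limma), and did not pass under limma-trend, under cyclic loess, with the replicate number as a block or with the SHRSP E20 arrays averaged in pairs.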

How the results depend on the processing

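All 10 enzymes stayed lower at E20 and past the threshold in both strains in each of 36 alternative fits, 26 of which left out 1 array. Over the other 10 fits, some counts of the gene lists compared between the stages fell. Membrane and import genes in SHRSP went down to 1 lower and 3 higher, and synthesis genes to 2 higher in each strain. The count of higher peroxisomal genes in F344 went down to 0. That of higher regulators went down to 0 in F344 and 1 in SHRSP. At week 14, Acads and Acaa2 kept their calls in all 36, and the count of enzymes past the threshold was 6, with 3 under limma-trend, 2 under the methods' t-test and 4 to 7 with 1 array left out. Of the enzymes called at week 14, Acadm had an adjusted p of 0.0641 with only the groups compared, 0.0823 under limma-trend, 0.0527 with array weights, 0.104 under the methods' t-test and 0.0768 under cyclic loess, Acadvl had 0.0685 under limma-trend and 0.0817 under the methods' t-test, Hadh had 0.0505 under the methods' t-test, and Echs1 had 0.0588 under limma-trend, 0.0503 with array weights and 0.0628 under the methods' t-test. The count for the interaction was 1, and 0 under limma-trend, cyclic loess and with SHRSP E20 replicates averaged as 1 with 2 and 3 with 4, arrays that correlated at up to 0.998 (0 to 2 with 1 array left out). Over all probes, 723 differed between the strains at E20, with 1228 under array weights, 343 with those pairs averaged and 520 to 839 with 1 array left out, and the interaction had 667, with 415 with the pairs averaged and 542 to 736 with 1 array left out.

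With the replicate number as a block, 5 enzymes passed at week 14 (Echs1 had an adjusted p of 0.0629), none at E20, and the interaction count was 0 in place of 1. Same-numbered arrays of different groups correlated at -0.24 to 0.44 in their deviations (33 pairs, median 0.03, 13 over 0.1). Arrays with different numbers did so at -0.43 to 0.52 (216 pairs, median -0.02, 56 over 0.1).

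Values near 0 turned sign. Hadha at week 14 lay between -0.096 and 0.0067 with 1 array left out, the latter without SHRSP week 14 replicate 2. At E20 the strain difference of Acadvl lay between -0.014 and 0.052, of Hadh between -0.016 and 0.049 and of Decr1 between -0.039 and 0.043 with 1 array left out, that of Hadh was -0.0087 under the block and that of Decr1 was -0.024 with array weights. That replicate 3 of F344 at week 14 was lowest at 9 enzymes, checked after the data were seen, held under cyclic loess and under centring on bright probes. Background correction from raw intensities and the slide as a block were not run, since the raw columns match no sample. The cause of these changes was not tested.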
